A study of Mus musculus with 6 samples.

Results

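The developing mouse atrioventricular valve at E17.5 (E stands for embryonic day) was compared with its precursor, the atrioventricular endocardial cushion, at E12.5. The comparison takes every gene that a single-gene probe set of the array measures, 18193 genes in all from 34945 probe sets, with log2 ratios averaged over the probe sets of each gene. Both stages came from wild-type FVB/N embryos, whose cushions or valves were dissected out, and RNA extracts were pooled before hybridisation. Each stage has 2 arrays, described in the labels as biological duplicates. The number of embryos in a pool is not given, so the p-values measure the spread between duplicate arrays and not between embryos. A further 2 arrays of MC3T3 cells, a cultured mouse line of osteoblast progenitors, entered the fit only for its estimate of the spread. Part of the spread behind the p-values is therefore that of a cell line. The MC3T3 duplicates were closer, with 3 genes 2-fold apart between them against 64 at E12.5 and 99 at E17.5. On these 2 arrays 102 and 110 probe sets sat at the lowest ratio, 0.01, where no spread shows.

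Cushions form when endocardial cells lose their contacts and invade the jelly between endocardium and muscle. The resulting mesenchyme proliferates in a soft, hyaluronan-rich matrix. As the valve matures this tissue thins, slows its division and is sorted into layers of collagen, proteoglycan and elastin, while leaflets stay attached to muscle and carry an endothelial cover. The tissue remains surrounded by blood, muscle and epicardium, so a dissected sample can hold all of them. In such bulk samples fewer cells of a type and less RNA per cell cannot be told apart.

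Most genes differed little between the stages, with 13359 genes, or 73.4%, within 0.5 log2 units of no difference. A gene was called when limma's adjusted p was below 0.05 and the stages differed by at least 2-fold. Under this rule 850 genes (4.67% of those tested) rose by E17.5 and 335 (1.84%) fell, together 6.51%. The called risers had a median fold of 2.53 and the called fallers one of 2.31. By adjusted p alone, with no limit on the fold, 3509 genes (19.3%) were higher and 6231 (34.2%) lower. A 4-fold change was passed by 121 risers and 33 fallers. All 1185 called genes had arrays of the 2 stages that did not overlap. A 2-fold call that passes the adjusted p with 2 arrays a stage nearly requires this, so it adds no support. The median over all genes was -0.138 log2 units, and 65.8% of genes lay below 0, so every difference below is to be read against a slightly negative centre. When arrays were centred on their medians, the counts were 1065 higher and 211 lower, and the share of calls that were higher went from 71.7% to 83.5%. The deposited ratios are relative to the median of the 4 valve arrays for each probe set, so they hold no absolute level and give no order between genes.

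**Figure D1:**
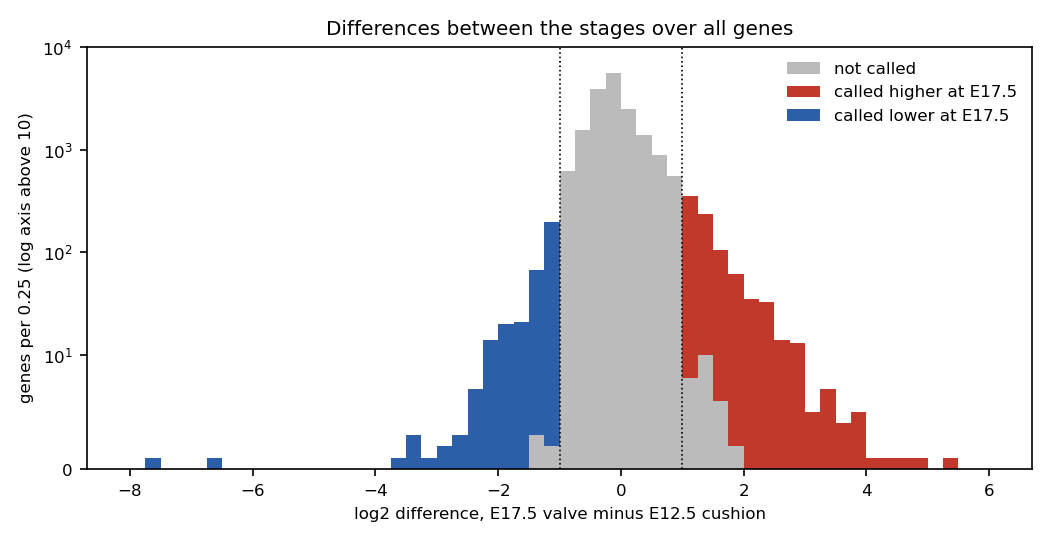
Number of genes (vertical, linear to 10 and logarithmic above) by log2 difference of E17.5 valve minus E12.5 cushion (horizontal, bins of 0.25), with called genes in colour and dotted lines at the 2-fold limits. The bulk of the 18193 genes lies just left of 0, and the 850 risers outnumber the 335 fallers.

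2 arrays stood apart from their duplicates in transcripts of other cell types. Hepatocyte markers, for which the mean log2 ratio over 25 genes was -0.17 and -0.86 at E12.5, averaged 2.04 on E17.5 replicate 1 and 0.05 on E17.5 replicate 2. The 25 neutrophil and mast cell genes averaged 0.80 and 0.14 on the same E17.5 arrays. Erythroid markers, 19 genes, averaged 1.00 and 0.06 on E12.5 replicates 1 and 2 and then -0.81 and -1.19 at E17.5. The E17.5 means are pulled down by the embryonic globins Hbb-bh1, Hba-x and Hbb-y, which differed by -7.52, -6.58 and -3.70. In the alternative fits these globins stayed at or below -7.31, -6.14 and -3.31. Megakaryocyte and platelet genes likewise read 0.80 on E12.5 replicate 1 against 0.14 on replicate 2. The number of hepatocyte markers called higher was 10 of 25, and 1 with a variance fit that allows for a trend and for outlying genes. Leaving out E12.5 replicate 2 gave 2 such calls, leaving out E17.5 replicate 1 gave 5, and leaving out E17.5 replicate 2 gave 20. Neutrophil and mast cell calls moved from 10 to 6 when either stage's replicate 1 was left out, and to 3 with that variance fit. Erythroid calls moved from 9 lower to 5 when E12.5 replicate 1 was left out, and to 13 when its duplicate was. Platelet-list calls moved from 9 lower to 3 without E12.5 replicate 1. The part of liver-type or blood-type RNA in any other gene's difference was not tested.

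**Figure D2:**
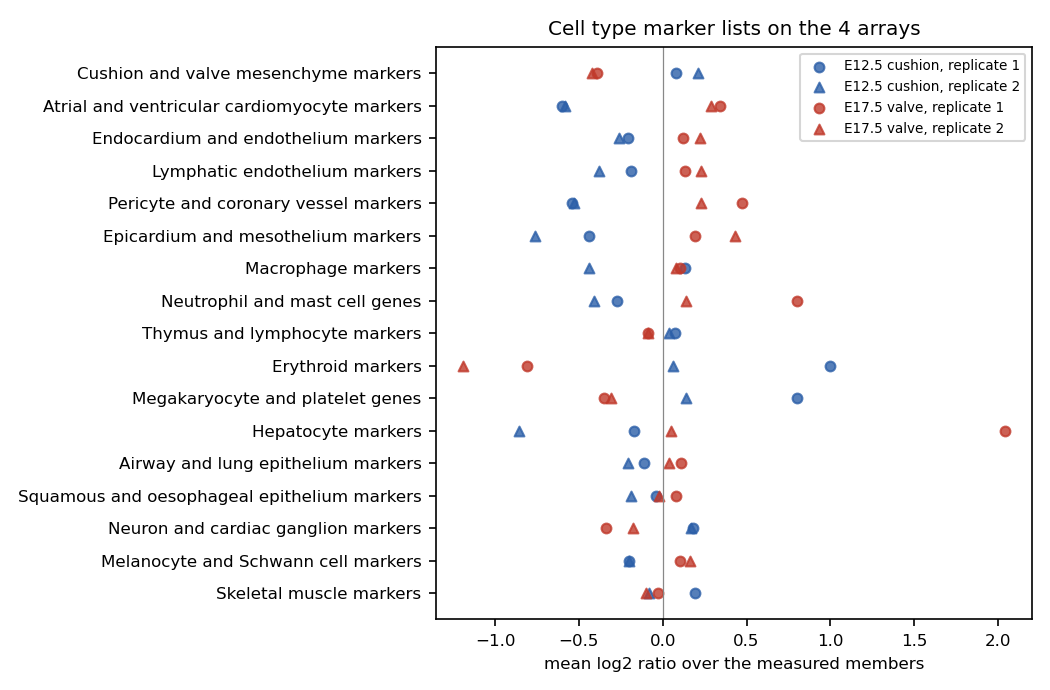
Mean log2 ratio over the measured members of each cell type marker list (horizontal) on the 4 arrays, E12.5 in blue and E17.5 in red, with circles for replicate 1 and triangles for replicate 2. The hepatocyte list reads 2.04 on E17.5 replicate 1 against 0.05 on replicate 2, and the erythroid list 1.00 on E12.5 replicate 1 against 0.06 on replicate 2.

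The genes ranked 7 to 26 by size of rise included several of striated muscle. Ckmt2, the sarcomeric mitochondrial creatine kinase, read -2.74 and -2.86 on the E12.5 arrays and 1.23 and 0.89 on the E17.5 arrays. The stages were far apart, and the difference was 3.86 ± 0.15 log2 units (± is the standard error from limma, 2 arrays a stage; adjusted p = 5.57e-06). Myom2, a protein of the sarcomere's M-band, rose by 3.36 ± 0.10 (10.2-fold), and Dhrs7c, an enzyme of the striated muscle sarcoplasmic reticulum, by 3.42 ± 0.10. Cavin4, the cavin of muscle caveolae, read -2.48 and -2.41 and then 1.00 and 0.86, with both arrays of each stage close together. It rose by 3.37 ± 0.08.

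Other genes of this range have varied roles. Ptgds, which makes prostaglandin D2 and carries lipophilic ligands, read -2.73 and -3.07 at E12.5 and 1.09 and 0.88 at E17.5, a 14.7-fold rise with an adjusted p of 3.35e-06. Ccn3, a matricellular protein of the CCN family, rose by 3.84 ± 0.16. Abi3bp, an extracellular matrix protein that binds collagen, rose by 3.35 ± 0.18. In each of these the E12.5 arrays lay far below the E17.5 arrays. Aoc3, a cell-surface amine oxidase of vascular smooth muscle and adipocytes, rose 13.8-fold, and Msln, the mesothelial surface protein mesothelin, 8.81-fold. Atp8b1, a phospholipid flippase, rose 8.11-fold with an adjusted p of 8.89e-06. Gm11716, a predicted gene with no role given here, rose 10.6-fold. Alb, Ahsg, Fga and Fgg also lie in this range, and their 2 E17.5 arrays differed widely. Fga read 3.64 on E17.5 replicate 1 and 0.48 on replicate 2. Without E12.5 replicate 2, Fga and Fgg missed the adjusted p at 0.0711 and 0.0562. With the variance fit that allows for a trend and outlying genes, Alb, Fga and Fgg missed it at 0.0826, 0.132 and 0.106.

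**Figure D3:**
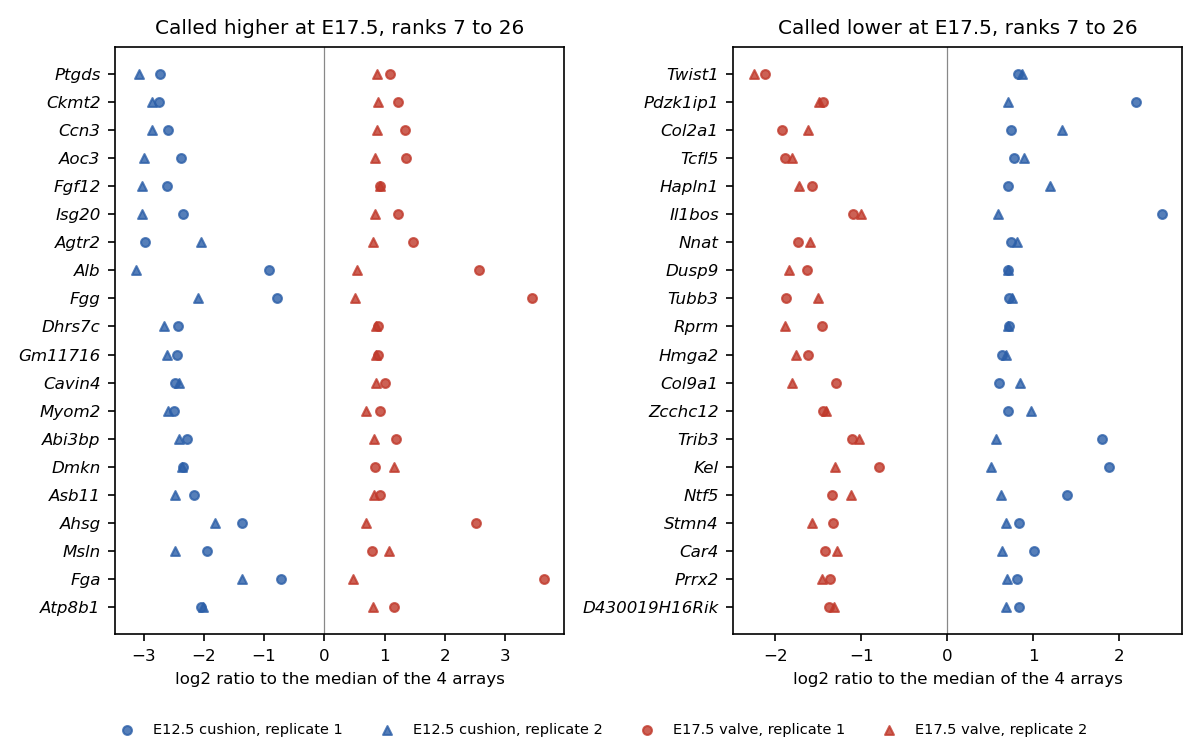
Log2 ratio on each of the 4 arrays (horizontal) for the genes ranked 7 to 26 by size among called genes, risers left and fallers right, with E12.5 in blue and E17.5 in red, circles for replicate 1 and triangles for replicate 2. The stages are apart in every gene because the ranking took only called genes whose stages do not overlap. Alb, Fgg, Ahsg and Fga spread between the E17.5 arrays, and Pdzk1ip1, Il1bos, Trib3, Kel and Ntf5 between the E12.5 arrays.

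The genes ranked 7 to 26 by size of fall included cushion mesenchyme regulators, cartilage-type matrix and some genes better known from the nervous system. Tubb3, the beta-tubulin usually taken to mark neurons, read 0.72 and 0.75 at E12.5 and -1.88 and -1.50 at E17.5. It fell by 2.43 on the log2 scale, with a standard error of 0.12. Stmn4, a microtubule-destabilising stathmin, fell 4.62-fold, and Nnat, an imprinted membrane proteolipid, fell 5.44-fold. Of 28 measured markers of neurons and cardiac ganglia, none was called higher and 5 were called lower, namely Tubb3, Gata3, Isl1, Uchl1 and Scg2. Scg2, a granule protein, was at -0.92 and not called without E12.5 replicate 1. The list's median was -0.18, close to that of all genes.

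Dusp9, a phosphatase that switches off MAP kinases, read 0.70 on both E12.5 arrays and -1.63 and -1.84 at E17.5, a 5.43-fold fall (adjusted p = 4.44e-06). Rprm, a p53-induced mediator of cell cycle arrest in G2, fell 5.24-fold. Tcfl5, a basic helix-loop-helix factor, fell 6.41-fold and Zcchc12, a zinc-knuckle protein, by 2.26 on the log2 scale. Both arrays of each stage lay close together for Dusp9, Tcfl5 and Rprm's E12.5 arrays. Ntf5, a neurotrophin, read 1.39 and 0.62 at E12.5 and -1.34 and -1.12 at E17.5, so its E12.5 arrays were uneven. Kel, Trib3, Pdzk1ip1 and Il1bos were uneven in the same way, highest on E12.5 replicate 1, the array on which erythroid markers were highest.

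**Figure D4:**
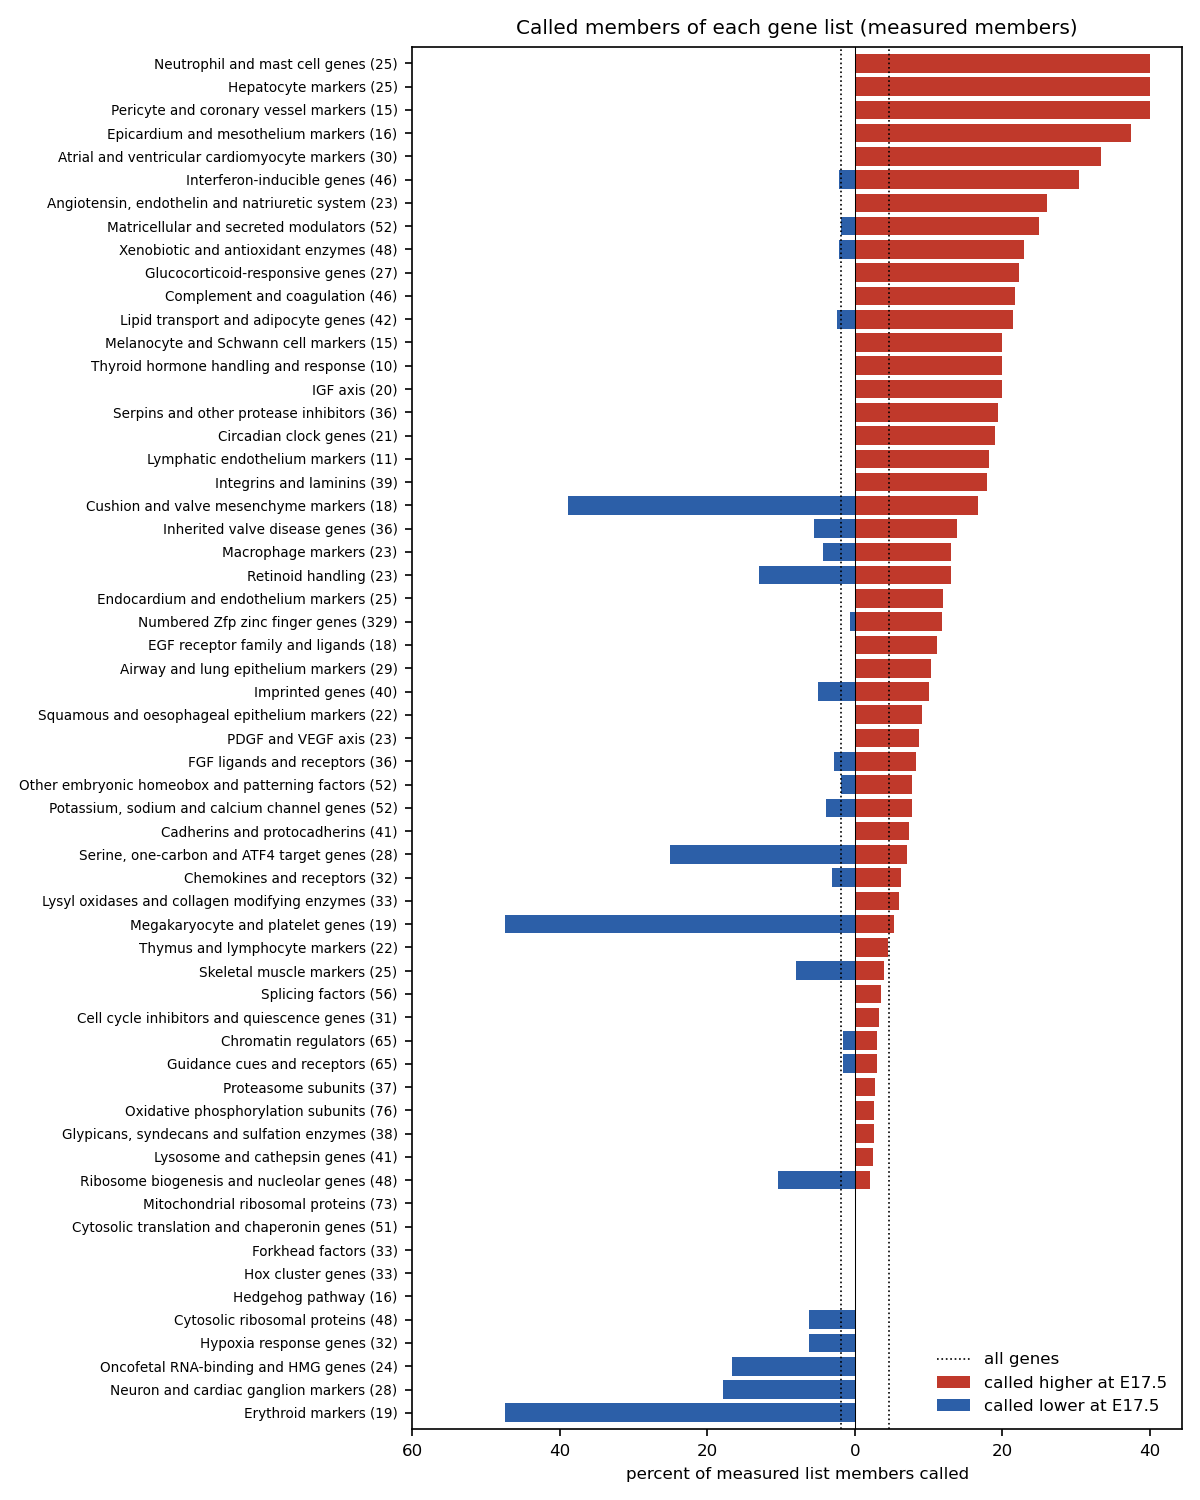
Percent of the measured members of each gene list (number in brackets) called higher (red, right) or lower (blue, left) at E17.5, for lists with at least 10 measured members, with dotted lines at the shares over all genes, 4.67% and 1.84%. Vascular, cardiac, matricellular, hepatocyte and neutrophil lists lie far right, and the erythroid, platelet and cushion mesenchyme lists far left.

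The genes were grouped into 52 lists by role, with 1619 measured members, and 8 more lists were added after values had been seen. Each list's count is to be read against the shares called over all genes, 4.67% higher and 1.84% lower. Of the signalling lists, the angiotensin, endothelin and natriuretic system had the most risers for its size, 6 of 23, with none lower and a list median of 0.14. Agtr2, the fetal-type angiotensin II receptor, read -2.97 and -2.04 at E12.5 and 1.48 and 0.81 at E17.5. It rose by 3.65 ± 0.30 log2 units with an adjusted p of 9.79e-05, and the replicates of each stage differed by well under that. Agtr1a, the other main angiotensin II receptor and a gene singled out after its values were seen, rose by 1.43 ± 0.15. Npr3, the natriuretic clearance receptor found on endocardium, rose 4.93-fold. The peptides themselves rose too, Nppa 3.11-fold and Nppb 2.54-fold. Nppb and Ednrb were also chosen after their values were seen. Ednrb, an endothelin receptor, rose 2.15-fold, and its call was lost without E17.5 replicate 2 at a difference of 0.95.

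A list of genes linked to glucocorticoids, the hormones whose level climbs in the late fetus, had 6 of 27 called higher, none lower. Its median was 0.29. The risers include the receptor gene itself and Lcn2, which the neutrophil and mast cell list also counts. Nr3c1, the glucocorticoid receptor, read -0.89 and -0.85 at E12.5 and 0.56 and 0.48 at E17.5. Its 6 probe sets averaged to a rise of 1.39 ± 0.08 log2 units, and the stages did not overlap. Klf9, a zinc finger factor induced by the receptor, rose by 1.38 ± 0.08 over 7 probe sets. Fkbp5 and Tsc22d3, common readouts of the receptor, did not pass the test. Fkbp5 differed by -0.14 ± 0.09 (adjusted p = 0.219), and Tsc22d3 by -0.06 ± 0.08 (adjusted p = 0.562). Hsd11b1, which regenerates active corticosteroid inside cells, differed by 0.73 ± 0.18, short of the 2-fold limit. Hormone levels were not measured.

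In the IGF axis 4 of 20 genes were called, where the share over all genes was 6.51%, and these rose, all of them binding proteins or the protease that cuts these. Pappa2, which cleaves IGF-binding proteins, rose 2.53-fold, and Igfbp3, a binding protein of the circulation, 2.18-fold. Igfbp1 was at 2.79 on E17.5 replicate 1 and 0.29 on replicate 2, so that without replicate 1 it was at 0.68 and not called. Igfbp3 was at 0.97 with E12.5 replicate 2 left out, which gave the list 2 calls, and at 0.98 with E17.5 replicate 2 left out. The ligands Igf1 and Igf2 differed by 0.14 ± 0.10 (adjusted p = 0.263) and 0.09 ± 0.07 (adjusted p = 0.341).

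In the FGF list 3 of 36 rose and 1 fell, 11.1% in all against 6.51% over all genes. The risers include Fgfbp1, a carrier of FGFs and not an FGF or receptor, which the squamous epithelium list also counts. Fgf12, an intracellular member that modulates sodium channels, read -2.61 and -3.02 and then 0.92 on both E17.5 arrays, a rise of 3.73 ± 0.13. Fgf18, a secreted ligand active on cartilage and bone, rose 2.34-fold, and its call was lost without E12.5 replicate 2 at 0.98. Fgfrl1, a receptor that lacks the kinase domain, fell 2.45-fold. Fgf7, Fgf10 and Fgfr2 differed by 0.47, -0.53 and -0.69, all under the 2-fold limit.

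Vascular growth factors were represented by Angpt1, the pericyte-made ligand of the endothelial Tie2 receptor, which rose by 1.92 ± 0.15 log2 units. Nrp1, a co-receptor for VEGF and semaphorins, rose 2.07-fold, and missed the limit at 0.99 without E12.5 replicate 1 and at 0.97 without E17.5 replicate 2. The list of 23 PDGF and VEGF genes had no others called, a share of 8.70%, and its median was 0.23. Over all genes 6.51% were called and 4.67% called higher. Both PDGF receptors lay below 0, with Pdgfra at -0.79 ± 0.08 and Pdgfrb at -0.46 ± 0.11. Of 18 genes of the EGF receptor family, which controls cushion size through its ligands, only Btc and Egf were called, 2.24-fold and 2.11-fold higher. Egf was at 0.85 without E12.5 replicate 2 and not called.

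Retinoid handling split, with 3 of 23 higher and 3 lower. Crabp2, which delivers retinoic acid to its nuclear receptor, read 1.39 and 0.58 at E12.5 and -0.98 and -1.11 at E17.5. It fell 4.07-fold, and Cyp26b1, which degrades retinoic acid, fell 3.15-fold. Adh1, a dehydrogenase that can oxidise retinol, rose by 2.52 ± 0.27 log2 units. The rise of Rbp4, the retinol carrier of plasma, rested on E17.5 replicate 1 at 1.72, against 0.08 on replicate 2. It was at 0.77 and not called without E17.5 replicate 1, and at 0.98 without E12.5 replicate 2. The call of Rarres2 (chemerin) was lost when probe sets marked as cross-hybridising were left out, at 0.35.

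No gene of the hedgehog pathway was called among 16 measured, where the median was -0.31. At adjusted p alone 9 were lower and none higher, where 34.2% of all genes were lower and 19.3% higher, and no fold limit was met. Gli2 and Gli3, transcription factors of the pathway, differed by -0.79 ± 0.13 and -0.50 ± 0.11, and Smo, its transducer, by -0.51 ± 0.08. The targets Gli1 and Ptch1 differed by 0.14 ± 0.11 and 0.18 ± 0.10, neither passing. Gli2, Gli3 and Smo were picked after their values were seen.

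Guidance genes had 3 of 65 called, a share of 4.62% against 6.51% over all genes. Sema3d, a secreted semaphorin, read -1.06 and -1.07 at E12.5 and 0.58 and 1.04 at E17.5, a rise of 3.68-fold. Epha4 rose 2.09-fold, and Unc5c, a netrin receptor, fell 2.49-fold. Epha4 sat at the limit without E17.5 replicate 1 and lost its call. Sema3c, a relative of Sema3d, was at 0.68 ± 0.10, below the limit. Of 32 chemokine genes 9.38% were called. Cxcl13 and Ccl2 rose 2.49-fold and 2.47-fold, and Cxcl14 fell 2.39-fold. Cxcl12, which attracts cells through Cxcr4, differed by -0.78 ± 0.10.

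Cytokines and neuropeptides outside the lists, singled out after their values were seen, also moved. Il6 rose by 2.22 ± 0.10 log2 units, from -1.42 and -1.46 to 0.85 and 0.70. Il33, an alarmin kept in stromal nuclei, rose by 2.13 ± 0.23. The peptide precursors Tac2, Penk and Pomc fell 3.13-fold, 2.05-fold and 2.04-fold, the latter pair losing the call when arrays were centred. Penk was also at -0.80 without E17.5 replicate 2, and Pomc at -0.85 without E12.5 replicate 1. Mdk, the heparin-binding growth factor midkine, fell by 1.68 on the log2 scale.

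Among transcription and RNA regulators, one list held fetal and stem-cell RNA-binding and chromatin proteins of which none of 24 genes rose, 4 fell and the median was -0.41. Hmga2, an architectural chromatin protein of embryonic cells, read 0.64 and 0.68 at E12.5 and -1.62 and -1.76 at E17.5. It fell by 2.35 on the log2 scale over 4 probe sets (adjusted p = 3.71e-06), with both stages tightly grouped. Igf2bp1, an RNA-binding protein of fetal tissues, fell 3.06-fold, and Sall2 and Sall4, zinc finger factors of early embryos, 2.58-fold and 2.07-fold. The call of Sall4 was lost when arrays were centred, at -0.93, and without E12.5 replicate 2, at -0.96. Igf2bp3 and Lin28b, other fetal RNA-binding proteins, were not called. Igf2bp3 differed by -0.42 ± 0.08, and Lin28b by 0.00 ± 0.08. Mycn, a Myc factor of embryonic growth, differed by -0.71 ± 0.08, and Myc itself by 0.12 ± 0.08.

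Hox and forkhead genes, 33 measured of each, had none called at the 2-fold limit, with medians of -0.27 and -0.15. At adjusted p alone, the numbers higher and lower were 1 and 15 for Hox genes and 6 and 11 for forkhead genes. Over all genes 19.3% were higher and 34.2% lower by that rule, and the forkhead numbers lie near these shares. Among 52 other homeobox and patterning factors, 3 of the 4 risers were Ebf1, Ebf2 and Ebf3, members of one family of helix-loop-helix factors active in adipose and perivascular stroma. Ebf2 read -0.51 and -0.94 and then 0.42 and 0.54, a rise of 1.20 ± 0.14, and Ebf3 one of 1.18 ± 0.12. Without E12.5 replicate 2 the list had 1 riser in place of 4, with Ebf2 at 0.99 and Ebf1 at 0.89. Isl1, which marks second heart field progenitors and cardiac neurons, fell by 1.53 on the log2 scale. Tcf21, an epicardial and fibroblast factor, differed by -0.56 ± 0.08.

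Of 21 circadian clock genes 4 rose. Hlf, a PAR-family clock output factor, rose 2.63-fold, and Clock, a core activator, 2.45-fold. Nr1d2, a nuclear receptor that represses clock genes, rose 2.19-fold, but it missed the limit at 0.91 without E12.5 replicate 1 and at 0.93 without E17.5 replicate 1. The output gene Dbp differed by -0.45 ± 0.11 and Per3 by -0.06 ± 0.07. The hour of dissection is not given.

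The inherited valve disease list, genes whose variants cause valve defects in people or mice, had 5 of 36 higher and 2 lower. Tll1, a tolloid protease needed for heart septation in mice, read -1.86 and -1.84 at E12.5 and 0.78 and 1.11 at E17.5. It rose by 2.80 ± 0.14 log2 units, the largest rise of the list. Gata5, a factor whose loss gives bicuspid aortic valves in mice, fell by 1.87 on the log2 scale. Smad6, the inhibitor of BMP signalling, fell by 1.20 with arrays of 0.51 and 0.47 against -0.73 and -0.70.

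In cell cycle control 1 of 31 inhibitor and quiescence genes rose, Ccng1, a p53 target, by 2.38-fold. That is 3.23% of the list, against 6.51% called over all genes. Cdkn1c, an inhibitor of growing tissues, differed by -0.89 ± 0.22, and Cdkn1a by -0.20 ± 0.10. Of the D-type cyclins that drive entry into S phase, Ccnd1 differed by -0.62 ± 0.08 and Ccnd2 by -0.07 ± 0.08. Lef1, a Wnt-pathway transcription factor named after its values were seen, fell by 2.05 on the log2 scale.

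Matricellular and secreted modulators of the matrix had 13 of 52 members higher and 1 lower, with a median of 0.24. Sparcl1, an adhesion-modulating relative of osteonectin, read -1.54 and -1.62 at E12.5 and 0.78 and 0.73 at E17.5. It rose 5.04-fold (adjusted p = 3.49e-06), and replicates nearly coincided. Tnxb, tenascin X, which binds collagen fibrils and was chosen after its values were seen, rose by 2.26 ± 0.12. The member that went the other way was Thbs1, thrombospondin 1, which fell 2.25-fold.

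Receptors and basement membrane proteins shifted upward in part, with 7 of 39 integrin and laminin genes higher and none lower, at a median of 0.02. Lamb3, a laminin chain of epithelial basement membranes, read -1.28 on both E12.5 arrays and 0.99 and 0.67 at E17.5, a rise of 2.11 ± 0.12. Itga1, part of a collagen receptor, rose by 1.56 ± 0.11, and Itgb8, part of a receptor that frees latent TGF-beta, rose 2.84-fold. Itga8 rose by 1.04 ± 0.16, but was at 0.78 without E17.5 replicate 1 and 0.96 without E12.5 replicate 2, and not called.

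Among 41 cadherins and protocadherins 3 were called, a share of 7.32% against 6.51% over all genes. These 3 were protocadherins, and they rose, where 4.67% of all genes were called higher. Pcdh7 rose by 1.74 ± 0.13, Pcdh20 by 1.46 ± 0.10 and Pcdh17 by 1.06 ± 0.10, or 0.98 and not called without E17.5 replicate 2. The classical mesenchymal cadherins were not called, with Cdh11 at 0.51 ± 0.10 and Cdh2 at 0.38 ± 0.15. Of the 38 glypican, syndecan and sulfation genes only Csgalnact1, which starts chondroitin sulfate chains, was called, 2.61-fold higher. Of 33 lysyl oxidases and collagen-modifying enzymes 6.06% were called. Lox, which crosslinks collagen and elastin, rose by 1.75 ± 0.11, and Tll1 was the other one called.

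Protease inhibitors had 7 of 36 higher and a median of 0.39. Itih5, a hyaluronan-binding protein of the inter-alpha-trypsin inhibitor family, rose by 2.30 ± 0.10. Pzp and Serpina1b, inhibitors of plasma made by liver, were at 3.25 and 3.33 on E17.5 replicate 1 and at 0.55 and 0.35 on replicate 2, the array with high hepatocyte markers being the higher in both. With the trend and outlier variance fit neither was called (adjusted p = 0.105 and 0.153), nor was Serpina1b without E12.5 replicate 2 (adjusted p = 0.0985). The list had 11 risers without E17.5 replicate 2. In the complement and coagulation list 10 of 46 rose and none fell, at a median of 0.21. C1s1, a protease of the classical pathway, read -1.46 and -1.86 and then 1.09 and 0.71, a rise of 2.56 ± 0.16. Calls in this list ran from 6 without E12.5 replicate 2 to 15 without E17.5 replicate 2.

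Interferon-inducible genes, a list drawn up after values were seen, had 14 of 46 higher, 1 lower and a median of 0.24. Isg20, an RNA exonuclease, read -2.35 and -3.03 at E12.5 and 1.23 and 0.85 at E17.5, a rise of 3.73 ± 0.22. Gbp2 and Gbp8, guanylate-binding GTPases of cell defence, rose by 2.82 ± 0.21 and 2.98 ± 0.17. Of the genes chosen after their values were seen, Gbp7 rose by 1.70 ± 0.13, Rsad2 (viperin) by 2.39 ± 0.25 and Ifit1bl1 by 1.86 ± 0.17. Iigp1, an immunity-related GTPase, fell 2.27-fold. The stages did not overlap for any of these.

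Promoters of risers in this group are shown because interferon-responsive genes are known for a repeated GAAA element, the interferon-stimulated response element. The motif searched was GAAA, any 2 bases and GAAA again, on both strands, over 250 bases before to 50 after each start in RefSeq's promoter table (GRCm38.p6). It was found in 437 of 14452 promoters (3.02%) over all measured genes. The table lists 34 of the 46 interferon genes (73.9%), too few for a share of the list to be compared with it. The motif was in 17 of those 34, called or not, and in 5 of the 10 listed risers. Below are the 120 bases that precede the start of 4 of them, 5′ to 3′ on the gene's strand, with the match in capitals. All 4 matches lie on the other strand and so read TTTC, 2 bases and TTTC. Gbp2 is at chr3:142620543-142620662 on the plus strand, Gbp7 at chr3:142530216-142530335 on the plus strand, Rsad2 at chr12:26456453-26456572 on the minus strand and Ifit1bl1 at chr19:34601969-34602088 on the minus strand.
Gbp2: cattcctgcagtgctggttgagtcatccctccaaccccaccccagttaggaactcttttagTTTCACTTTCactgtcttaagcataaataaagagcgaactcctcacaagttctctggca
Gbp7: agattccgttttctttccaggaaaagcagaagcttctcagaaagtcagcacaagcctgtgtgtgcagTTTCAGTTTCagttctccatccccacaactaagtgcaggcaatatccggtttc
Rsad2: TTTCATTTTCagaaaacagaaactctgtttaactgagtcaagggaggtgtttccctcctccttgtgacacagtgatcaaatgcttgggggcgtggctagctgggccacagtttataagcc
Ifit1bl1: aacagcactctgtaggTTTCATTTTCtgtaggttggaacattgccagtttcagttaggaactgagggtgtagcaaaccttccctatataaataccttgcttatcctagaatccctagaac
The match begins 59 bases before the start in Gbp2 and 53 before it in Gbp7, and farther upstream in Rsad2 and Ifit1bl1, at 120 and 104 bases. A match of letters is a description of the window and does not show that a factor binds there.

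Lipid handling genes had 9 of 42 higher and 1 lower, with a median of 0.19. Cd36, a fatty acid transporter of muscle, endothelium and macrophages, read -1.77 and -1.80 at E12.5 and 0.81 and 0.90 at E17.5. It rose by 2.64 ± 0.08 (adjusted p = 1.89e-06), and the replicates nearly coincided. Fabp4, a fatty acid carrier of capillaries and fat cells, rose by 2.01 ± 0.11. Ppargc1a and Ppara, a coactivator and a nuclear receptor of fatty acid oxidation singled out after their values were seen, rose by 1.74 ± 0.12 and 1.43 ± 0.12. Plin2, which coats lipid droplets, fell 2.10-fold, a call lost on centring (-0.95) and on leaving out E17.5 replicate 2 (-0.97).

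Caveolae genes, another list made after values were seen, had 4 of 9 higher, none lower and a median of 0.88. Cav1, the main coat protein, read -1.03 and -1.25 and then 0.60 and 0.64, a rise of 1.76 ± 0.09, and Cavin2 rose by 2.33 ± 0.10. Cavin1, which caveolae need to form and which was chosen after its values were seen, did not pass the test, at -0.08 ± 0.09 over 3 probe sets.

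Enzymes of xenobiotic and antioxidant defence had 11 of 48 higher and 1 lower, though the list's median was 0.01. Fmo2, a flavin monooxygenase, rose by 2.35 ± 0.08 over 5 probe sets, and Cbr2, a carbonyl reductase, by 2.25 ± 0.08. Hmox1, heme oxygenase, fell by 1.27 on the log2 scale, and its E12.5 arrays read 1.26 and 0.24. Without E12.5 replicate 1 it was at -0.77 and not called.

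In energy metabolism few genes passed the 2-fold limit. Of 32 hypoxia response genes none rose, and 2 glucose transporters fell, Slc2a3 by 1.69 and Slc2a1 by 1.42 on the log2 scale. The share called was 6.25%, all of it lower, where 6.51% of all genes were called and 1.84% called lower. Without E12.5 replicate 2 the fallers of this list were 4. Among 76 oxidative phosphorylation subunits only Cox8b, a heart and skeletal muscle isoform, and Cox7c rose, and Cox7c was at 0.97 and not called without replicate 1 of both stages. Of the 76, 73 lay above the median of all genes. At adjusted p alone 22 subunits were higher and 1 lower, around a list median of 0.13. By that rule 19.3% of all genes were higher and 34.2% lower.

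Serine, one-carbon and ATF4-target genes, listed after values were seen, had 7 of 28 lower, 2 higher and a median of -0.42. Phgdh, the enzyme that commits glucose carbon to serine, read 0.61 and 0.50 at E12.5 and -0.79 and -0.87 at E17.5, a fall of 1.39 on the log2 scale with a standard error of 0.08. Psat1, the next enzyme, fell 2.35-fold, Asns, asparagine synthetase, 2.39-fold, and Mthfd1l, of mitochondrial folate metabolism, 2.47-fold. Psat1, Asns, Gldc and Cth were chosen after their values were seen. Gldc and Cth fell 2.12-fold and 2.05-fold, and both lost the call when arrays were centred and when E17.5 replicate 2 was left out, at -0.93 and -0.65.

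Channel genes had 4 of 52 higher and 2 lower, 11.5% in all against 6.51% over all genes. Kcnj8, the pore of the pericyte KATP channel, rose 2.64-fold, and Kcnj3, an atrial inward rectifier, 2.48-fold. Kcnmb4 and Kcne3, accessory subunits, fell 3.11-fold and 2.53-fold.

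The lists for the general machinery of gene expression had medians below that of all genes, -0.138, though not all leaned clearly to that side. Ribosome biogenesis and nucleolar genes had 5 of 48 lower and 1 higher, with a median of -0.44. Polr1c, a subunit of RNA polymerases I and III, read 0.57 and 0.41 at E12.5 and -0.58 and -0.65 at E17.5. It fell 2.16-fold, and Rrp12, Mybbp1a, Nhp2 and Noc4l fell by 2.05-fold to 2.13-fold. All 5 calls sat at the 2-fold limit and none remained when arrays were centred, which left 0 lower and 2 higher. Leaving out E12.5 replicate 1 gave 2 lower, as did leaving out replicate 2 of E17.5. Nop58, a core protein of small nucleolar complexes, rose 2.10-fold, and was at 0.94 without E17.5 replicate 1.

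Translation and chaperonin genes, 51 measured, had none called, with a median of -0.29, and at adjusted p alone 28 were lower and 9 higher. Mitochondrial ribosomal proteins, 73 genes listed after values were seen, had none called either, with 42 lower and 6 higher at adjusted p alone. Both lists are to be read against 34.2% lower and 19.3% higher over all genes by that rule. Proteasome subunits had 1 of 37 called, Psmc6, 2.52-fold higher against a list median of -0.33. Among 56 splicing factors Rbm25 and Rbm39 were called higher. The list's median was -0.29, and 26 members lay above the median of all genes. Rbm39 was at 0.82 without E12.5 replicate 1, and neither was called without replicate 1 of both stages. Of 65 chromatin regulators 4.62% were called, against 6.51% over all genes, and 30 lay above the median of all genes. Bmi1, a Polycomb protein, rose 2.73-fold, Tet2, which oxidises methylcytosine, 2.32-fold, and Dnmt3b, a de novo DNA methyltransferase, fell 2.07-fold. The call of Dnmt3b was lost when arrays were centred (-0.93), and that of Tet2 without E12.5 replicate 1 (0.95).

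Numbered Zfp zinc finger genes, most of which encode DNA-binding repressors, went the other way, with 39 of 329 called higher and 2 lower in a list made after values were seen. Their median was 0.05. Zfp51 read -1.61 and -1.54 at E12.5 and 0.73 and 0.81 at E17.5, a rise of 2.35 ± 0.08, and Zfp995 and Zfp930 rose by 2.19 ± 0.15 and 2.12 ± 0.09. Zfp423 and Zfp647, which fell, did so 2.31-fold and 2.35-fold. The number lower was 8 without E12.5 replicate 2 and 4 without E17.5 replicate 2. These genes are close in sequence, so a probe set may detect more than the gene it is named for, and counts within the family are uncertain.

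Marker lists of the cell types that a dissected sample could hold were read in the same way. Cushion and valve mesenchyme markers, which define the dissected tissue, had 7 of 18 lower and 3 higher, with a median of -0.62. Col2a1 and Hapln1, of cartilage and hyaluronan matrix, fell 7.01-fold and 6.07-fold, and Sox9, their regulator in cartilage, 2.10-fold, the latter call being lost when arrays were centred. Sox9 was chosen after its values were seen. Postn, the valve matrix protein periostin, rose by 1.40 ± 0.10.

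Cardiomyocyte markers had 10 of 30 higher, none lower and a median of 0.50, and the list averaged -0.60 and -0.58 at E12.5 and 0.34 and 0.29 at E17.5. The rises were uneven within the list. Casq2, which stores calcium in the sarcoplasmic reticulum, rose by 2.71 ± 0.08, and Sln, an atrial calcium pump regulator, by 2.64 ± 0.13. Ckm, Pln and Ttn, other genes of the working muscle, rose by 2.86, 1.15 and 1.28 log2 units. Ttn was at 0.97 and not called without replicate 1 of both stages. Common sarcomere genes did not pass the test, with Actc1 at 0.10 ± 0.07, Myl2 at 0.14 ± 0.07, Tnni1 at 0.11 ± 0.08 and Myh7 at 0.09 ± 0.09. Tnnt2 was at 0.48 ± 0.07. The muscle genes other than Ckm were picked after their values were seen. The part of muscle in the samples was not tested.

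Vessel-wall markers rose in part. Pericyte and coronary vessel markers had 6 of 15 higher and a median of 0.27. Rgs5 was at 2.41 ± 0.15 and Abcc9, the regulatory subunit of the Kcnj8 channel, at 2.30 ± 0.15. Pdgfrb, another member, was the lowest of the list at -0.46 ± 0.11. Endothelial markers had 3 of 25 higher, with Emcn, a sialomucin, at 1.52 ± 0.13, while Pecam1 was at 0.41 ± 0.08 and Cdh5 at 0.07 ± 0.12. Lymphatic markers had 2 of 11 higher, Lyve1 and Klhl4, and Lyve1, also made by resident macrophages, rose 7.06-fold. Epicardial and mesothelial markers had 6 of 16 higher, with Muc16 at 2.72 ± 0.14 and Dmkn at 3.35 ± 0.11, while Wt1 was at -0.08 ± 0.23. Pecam1, Cdh5 and Wt1 were chosen after their values were seen.

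In the macrophage list 3 of 23 rose, Lyve1, Mrc1 and F13a1, and Pf4, a platelet chemokine, fell, at -0.73 and not called without E12.5 replicate 1. Mrc1, the mannose receptor, rose by 1.36 ± 0.16. Mast cell proteases rose on both E17.5 arrays, with Cpa3 at 0.62 and 0.98 against -1.11 and -1.92, and Cma1 rose by 1.23 ± 0.11. The neutrophil genes S100a8 and S100a9, by contrast, read 2.67 and 2.64 on E17.5 replicate 1 and 0.44 and 0.54 on replicate 2. S100a8 and Cma1 were chosen after their values were seen. S100a8 missed the adjusted p at 0.0815 without replicate 1. Lymphocyte markers had 1 of 22 called, Ptprc, 2.10-fold higher, or 0.99 log2 units and not called without E12.5 replicate 2.

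Epithelial markers called higher were 3 of 29 airway genes (10.3%) and 2 of 22 squamous genes (9.09%), with none lower, against 4.67% higher over all genes. Scgb3a2, an airway secretoglobin, rose by 4.26 ± 0.15 and Fgfbp1, a carrier of FGFs, by 4.56 ± 0.22. Hopx and Perp rose 2.07-fold and 2.35-fold. Scgb3a1 read 1.39 on E17.5 replicate 1 and 0.32 on replicate 2. The general epithelial genes Epcam and Cdh1, chosen after their values were seen, differed by 0.27 ± 0.13 and 0.64 ± 0.22 and were not called. Of 15 melanocyte and Schwann cell markers 3 rose, and the list's median was 0.12, with its lowest member at -0.59. Fabp7, a glial fatty acid carrier, rose by 2.42 ± 0.17, Mlana by 1.33 ± 0.14 and Mitf by 1.19 ± 0.14. Skeletal muscle markers had 1 of 25 higher, Myh8, and 2 lower, Acta1 and Myog, and Myog read 1.48 and 0.21 at E12.5. Myog was at -0.58 without E12.5 replicate 1, and the list then had 3 higher and 1 lower. Myh8 was at the limit and not called without E17.5 replicate 1.

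The genomic span of the genes, which no list used, was set against the calls as a description. The median genomic span from start to end of the gene, in RefSeq's annotation, was 20.2 kb over 18145 genes with a span, 35.1 kb over 842 risers and 11.8 kb over 335 fallers. When all genes were split by span into 5 groups of equal size, 2.04% of the shortest were called higher and 2.92% lower. In the longest group these shares were 7.80% and 1.13%, and the median difference moved from -0.21 to 0.02 log2 units. Malat1, Atrx and Rock1, chosen after their values were seen, rose 2.88-fold, 2.85-fold and 2.92-fold. Their own spans are not given here, so they do not illustrate the trend. Malat1 was uneven at E12.5, at -1.54 on replicate 1 and -0.51 on replicate 2. The 3′ minus 5′ signal of the array's own Actb control probe sets was -0.06 and -0.19 at E12.5 and 0.19 and 0.08 at E17.5. For Gapdh the same measure was -0.03 on both E12.5 arrays and 0.04 and 0.03 at E17.5. The labels name 2 amplification kits without saying which sample had which, and the part of transcript length or amplification in the trend was not tested.

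**Figure D5:**
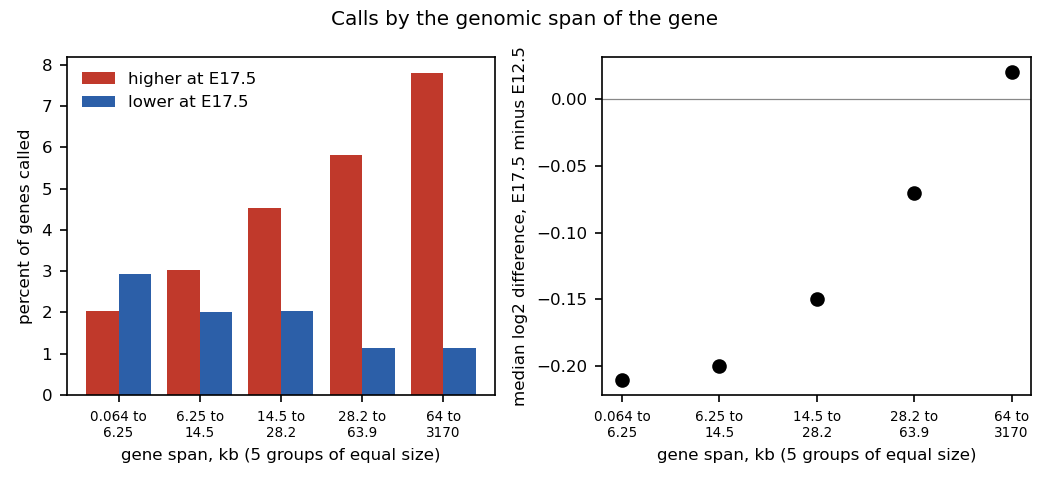
Percent of genes called higher (red) or lower (blue) at E17.5 and the median log2 difference (points), in 5 groups of equal size by genomic span in kb, from shortest to longest. Higher calls run from 2.04% in the shortest group to 7.80% in the longest, and lower calls from 2.92% to 1.13%.

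Runs of 3 or more neighbouring measured genes called in the same direction occurred 9 times, all of them higher. On chromosome 17, Zfp51, Zfp53, Zfp52 and Zfp948 formed a run of 4, with rises of 2.35, 1.39, 1.42 and 1.33 log2 units. The longest run, 5 genes on chromosome 11, was Efemp1, Pnpt1, Ppp4r3b, Cfap36 and Ccdc88a, of which Efemp1, a fibulin of basement membranes, rose the most at 2.04. The fibrinogen genes Fgg, Fga and Fgb on chromosome 3 formed another run, with Fgb at 0.92 and not called without E17.5 replicate 1. The runs were looked for after values had been seen. How many runs chance would give was not tested.

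Probe sets of the same called gene mostly had the same sign. Calls were made on the mean of these probe sets, which favours this, so it adds no support. Of 456 risers with several probe sets, 426 had all of them above 0, and 178 had all at 2-fold or more. All 121 fallers with several probe sets had every one below 0, and 58 had all at 2-fold or more. No gene had probe sets 2-fold apart from 0 in opposite directions. Averaging also hid differences, since 745 genes that were not called had at least 1 probe set called higher and 217 had 1 called lower. Hnrnpu, an RNA-binding protein of the nuclear matrix chosen after its values were seen, was at 0.96 ± 0.08 as a gene, but 1 of its 5 probe sets read 2.72 ± 0.14 and another 0.21 ± 0.11. At the edges of the fold limit, Akap2 and Mgll were just inside at 1.0006 and 1.0008, and Grb14 and Ppil6 just outside at 0.9988 and 0.9987. Among fallers Camk2n2 and Gpt2 were inside at -1.0017 and -1.0018, and Spc24 and Prmt8 outside at -0.9995 and -0.9974.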

How the data were processed

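Affymetrix mouse genome arrays were hybridised with pooled RNA. The deposited values are ratios, and the submitters' processing notes name RMA. By the values, each of 45101 probe sets has a median ratio of 1 over the 4 valve arrays (tolerance 1e-05). Depth has no meaning for arrays, and 2 arrays a stage limit the precision. 64 control probe sets, 932 with several genes and 9160 with no name in the annotation used were left out. The base 2 logarithm of each ratio was averaged over a gene's probe sets. limma 3.58.1 in R 4.3.3 fitted 18193 genes over 6 arrays in 3 groups, with Benjamini-Hochberg adjustment. Calls needed an adjusted p below 0.05 and 2-fold. On simulated data for this comparison, 1 of 67 genes changed 1.5-fold, 67 of 67 changed 3-fold and 1 of 17993 unchanged genes were called. The simulated noise was independent between genes, with 1 spread for each gene on all 6 arrays and unchanged genes centred on 0. Single real arrays were shifted in whole groups of genes, so the number of false calls does not carry over to these data. A permutation test of 2 against 2 cannot go below 0.333. Members and lists were chosen with earlier results of these data known. Genes named are drawn from those ranked 7 to 26 each way, the top 3 each way of a list and called members where these number 5 or fewer. They also come from 36 genes of interest, genes at the fold limit, and others marked as chosen after their values were seen. Not every gene under these rules is named in the text. Alternatives were the centring, the variance model, the probe set summary, the arrays fitted, the replicate block, the threshold and leaving out arrays.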

Additional observations from a re-analysis of the deposited data

How the results depend on the processing

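Of the 1185 called genes, 759 kept their call in each of the 11 alternative fits that measured them, and no named call changed direction. The fit that left out probe sets marked as cross-hybridising measured 17903 genes, and a gene missing there counts as kept. Leaving out arrays in turn gave 777 to 973 higher and 273 to 472 lower. Arrays centred on their medians gave 211 lower. Fitting only the 4 valve arrays gave 839 higher and 334 lower. Every probe set as its own item gave 2394 higher and 682 lower. Without a fold limit 3509 were higher and 6231 lower, and at 4-fold 121 and 33. No replicate pairing was used in the fit. With a replicate block the counts were 863 and 339, with 15 hepatocyte genes higher in place of 10 and 11 erythroid genes lower in place of 9. Deviations of same-numbered arrays correlated at 0.15 for E12.5 with E17.5, and at 0.058 and 0.023 with MC3T3, and no label says that a number marks a shared pool or day, so the numbers were not taken as pairs. An adjusted p below 0.01 gave 827 and 327. Leaving out replicate 1 of both stages, a setting chosen after seeing the data, gave 777 higher and 317 lower. The cause of these shifts was not tested. Precision is limited by 2 arrays a stage, and ratios carry no signal over background.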

Other observations

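The 9160 probe sets with no gene name in the annotation used were fitted beside the 34945 named ones. Of them 335 were called higher and 35 lower, against 2391 and 682 of the named. They are not analysed further here.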
